A study of Mus musculus with 4 samples.

Results

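Resting wild-type peritoneal macrophages were profiled by ranking the transcripts of 1 array, that of wild-type cells kept without lipopolysaccharide (LPS). A gene was ranked when its brightest probe was well above background, and 24739 of 30222 genes on the array met that rule (81.9%, 95% exact binomial interval 81.4% to 82.3%, counting error only). The cells were resident macrophages taken from the peritoneum of C57BL/6 mice and cultured for 2 days in RPMI medium with serum before the LPS step. The series holds 4 groups with 1 array each, namely wild-type cells left untreated, wild-type cells given LPS at 100 ng/mL over 1 day, and untreated and LPS-treated cells of CD163-deficient mice. CD163-deficient mice lack the macrophage receptor for haemoglobin bound to haptoglobin, and how the deficiency was made is not given in the sources used here. With 1 array per group there is no replicate spread between cultures, so levels are described without a test, and the other 3 arrays are given beside them in the order just named.

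Resident macrophages of the peritoneum patrol the fluid between the abdominal organs, where they clear dying cells and microbes. Most of them are large peritoneal macrophages of long-lived tissue origin, which depend on the transcription factor GATA6 and on retinoic acid from the surrounding tissue. A smaller population, the small peritoneal macrophages, comes from blood monocytes and expresses more MHC class II. Survival of both needs signalling through the receptor of colony-stimulating factor 1, and both take up and digest material in lysosomes.

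A level here is the log2 of the background-subtracted intensity of a probe minus the 75th percentile of that array, so a level of 0 stands for an intensity of 909.6. Levels of ranked genes ran from -5.77 to 8.87, and the percentile of a gene is the share of the 24739 ranked genes with a lower level. Where the 75th percentile is named below, it is the reference over all non-control spots, not a percentile among ranked genes. A probe's brightness depends on its sequence and position as well as on transcript amount, so a percentile places a probe signal and is no ratio of transcripts. In 5587 genes with 2 or more probes above background, the brightest and the dimmest probe of a gene differed by a median of 2.05 (interquartile range 0.92 to 3.52), or 21.6 percentile points. The probe nearer to the 3′ end was the brighter one in 65.9% of 3892 genes, with a median difference of 0.99. Spots of 1 probe differed far less, with a median standard deviation of 0.11 over 399 probes printed 10 times. No spot was saturated.

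Among the genes ranked highest were some whose probes share sequence with probes of other genes. Of the 100 genes ranked highest, 20 rested on a probe that shares a run of 16 bases with probes of other genes in the same orientation and that run or another in the opposite one (20%, 95% exact binomial interval 12.7% to 29.2%). The share was 8.11% among the next 900 genes and 3.09% over the ranked genes. Stretches of 30 bases from 13 of these probes are shown because they hold the 3 runs most common among the 20, with the 16 bases of the run in capitals and the probe's position on mouse assembly mm9. Of the other probes, 6 carry none of the 3 runs and 1, of a gene with a clone name, carries the second. As background, the first run resembles B1 and the others B2, families of short interspersed repeats that occur in many transcripts of the mouse, and no repeat annotation was used here. The first group is as follows.
Glrx2 (chromosome 1, 145596708 to 145596767): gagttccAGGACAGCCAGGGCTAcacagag
Elk1 (chromosome X, 20510521 to 20510580): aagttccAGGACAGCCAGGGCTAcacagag
Kctd14 (chromosome 7, 104606896 to 104606955): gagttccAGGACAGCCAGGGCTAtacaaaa
Ndor1 (chromosome 2, 25100377 to 25100436): ttccaggAGGACAGCCAGGGCTAcacagag
Med16 (chromosome 10, 79357669 to 79357728): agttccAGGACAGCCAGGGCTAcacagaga
Cxcl11 (chromosome 5, 92788567 to 92788626): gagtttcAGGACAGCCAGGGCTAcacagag
The second group carries another run.
Medag (chromosome 5, 150234212 to 150234271): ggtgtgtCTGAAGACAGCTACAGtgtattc
Synrg (chromosome 11, 83855517 to 83855576): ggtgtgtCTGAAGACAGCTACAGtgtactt
Pirb (chromosome 7, 3663046 to 3663105): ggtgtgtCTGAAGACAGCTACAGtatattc
Pbld1 (chromosome 10, 62540215 to 62540274): ggagtgtCTGAAGACAGCTACAGtgtaatt
Fam177a2 (chromosome 12, 56243005 to 56243064): ctggtgtCTGAAGACAGCTACAGtgttctt
The third run stood in this pair of probes and in none as its reverse complement, and both probes share further runs in the opposite orientation.
Exosc2 (chromosome 2, 31536706 to 31536765): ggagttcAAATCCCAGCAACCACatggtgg
Milr1 (chromosome 11, 106628762 to 106628821): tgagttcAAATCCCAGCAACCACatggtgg

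Probes with the first and second run were set side by side by orientation. The first run stood in 7 of the 39429 probes in the orientation shown, with a median level of 7.91, and in 4 probes as its reverse complement, with a median of 1.41 (range -0.93 to 2.32). The second run stood in 11 probes as shown, with a median level of 7.44, and in 2 probes reversed, at -3.38 and -0.60. The runs were picked from the brightest probes, so high levels in the orientation shown follow in part from that choice. Outside the top 100, the second run had 5 carriers in that orientation, at levels of 6.78 to 7.36 (percentiles 99.0 to 99.6), and the first run had 1, at 4.20 (percentile 94.0). How much of each signal came from other transcripts was not tested.

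For 18 of these 20 genes another probe of the same gene was on the array, and in 17 of them it was at least 2-fold dimmer. The brightest probe stands for a gene by rule, so a dimmer other probe follows from that choice. Among genes with 2 or more probes above background, the brightest and the dimmest differed 2-fold or more in 73.0% of 5587. In the top 100 they did so in 33 of 43 such genes, with a median difference of 5.105. The gap to the brightest other probe had a median of 6.68 and reached 12.80 in Pbld1, whose probes lay at 7.53 and -5.27. In Elk1, which encodes a transcription factor of the MAP kinase pathway, the probes lay at 8.41 and -4.14. In Slc10a1, the bile acid uptake transporter of liver cells, they lay at 8.32 and -4.44. The median percentile of the brightest other probe was 77.8, and 4 of the 18 other probes carried a shared run themselves. Over the 4 arrays the levels of the 20 probes varied by a median of 0.28, against 0.53 for the rest of the top 100. Because the 20 probes share runs with probes of other genes, the ranks are given here as those of the probes. The 20 genes are left out of the account of abundant transcripts below.

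**Figure D1:**
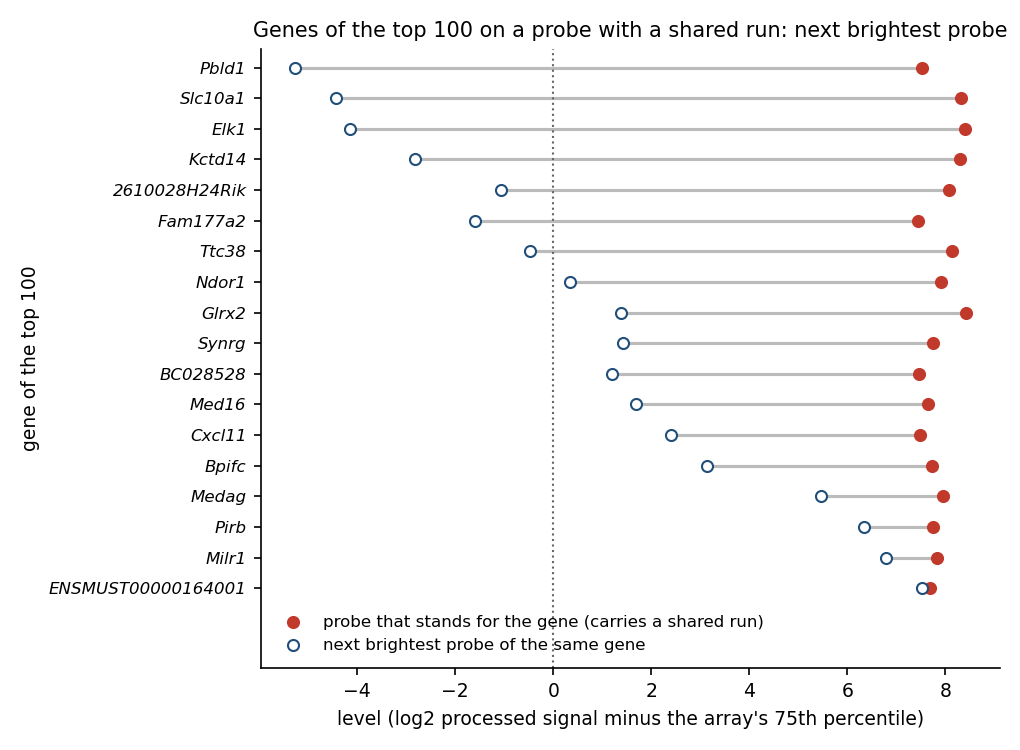
Level (log2 processed signal minus the array's 75th percentile) of the probe that stands for a gene of the top 100 and carries a shared run (filled red) and of the next brightest probe of the same gene (open blue), for the 18 genes with more than 1 probe on the wild-type array without LPS. The filled points lie between 7.44 and 8.42, while the open points spread from -5.27 to 7.52.

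Among the other genes of the top 100, Actb, Rn18s, Ctsd and Apoe were the highest. Actb, which encodes beta-actin, ranked 1 with a level of 8.87 on wild type without LPS and 8.62, 8.41 and 8.65 on the other arrays. Rn18s, which stands for the 18S ribosomal RNA, ranked 2 at 8.81. Ctsd, the lysosomal aspartic protease cathepsin D, ranked 3 with levels of 8.76, 8.09, 8.40 and 8.19. Apoe, the apolipoprotein that carries cholesterol out of macrophages, ranked 4 with levels of 8.48, 7.80, 8.23 and 8.01. On this scale the resting wild-type array held the highest of the 4 values for each of these genes. Their ranks stayed within the first 22 on each array. The 75th percentile was lowest on the resting wild-type array, at an intensity of 909.6 against 1324.7, 1257.5 and 1187.5. Unscaled intensities can therefore be ordered otherwise.

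Mfge8 and Fabp5 were high at rest and lower on both arrays with LPS. Mfge8 encodes the secreted protein that bridges phosphatidylserine on dying cells to integrins on phagocytes, and its levels were 8.30, 6.78, 8.17 and 7.26. Fabp5, a cytosolic fatty acid binding protein, had levels of 8.07, 6.50, 7.73 and 6.28. Its rank was 22 on both arrays without LPS, 278 on wild type with LPS and 399 on CD163-deficient with LPS. Tyrobp, the signalling adaptor DAP12 of many myeloid receptors, had levels of 8.24, 7.48, 7.89 and 7.49. The ferritin genes Fth1 (8.18, 7.87, 7.88 and 8.02) and Ftl1 (8.06, 7.73, 7.78 and 7.96) varied by less than 0.4 over the arrays.

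Of the 100 genes, 68 had a gene symbol that is no clone or model name, and 20 of these have the Rpl or Rps symbol of a ribosomal protein gene. Rpl37a (8.26), Rps14 (8.14) and Rpl10 (8.10) were the highest of them. Fau (8.10), not counted among the 20, encodes a fusion of a ubiquitin-like protein with a ribosomal protein. Rn4.5s, a small rodent RNA related to B1 repeats, ranked 20 at 8.09 on a probe whose whole sequence is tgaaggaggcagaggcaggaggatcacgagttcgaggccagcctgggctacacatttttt. The mitochondrial transcript COX1 had a level of 8.40. COX2 had one of 7.80, on a probe that the array annotation places on chromosome 1 and not on the mitochondrial genome. The other named genes of the top 100 included Tmsb4x (7.95), which sequesters actin monomers, the glycolytic enzyme genes Aldoa (7.93) and Gapdh (7.42), Ppia (7.77), the lysosomal glycoprotein gene Gpnmb (7.73), the cathepsin genes Ctsb (7.73), Ctss (7.58) and Ctsa (7.43), the oxidase subunit gene Cyba (7.71), the peroxidase gene Prdx1 (7.68), the galectin gene Lgals3 (7.45) and Lamp1 (7.44). The level at rank 100 was 7.37 (a probe without a gene name), and the 5 genes just outside ran from 7.37 (Crip1) to 7.36 (Phyhd1). Together the 100 genes gave 16.9% of the summed signal of the ranked genes. A further 45 of the 100 rested on probes that share a run with other genes in the same orientation alone, as copies of ribosomal protein genes do, so signals of such genes and their processed copies cannot be told apart. Such probes stood for 51.1% of the next 900 genes and 13.4% of the ranked genes.

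The genes that mark resident peritoneal macrophages spread widely along the ranking, though all 5 were well above background. Csf1r, the receptor of colony-stimulating factor 1, ranked 63 at percentile 99.7, with levels of 7.62, 7.37, 7.43 and 7.60. Its other 2 probes had levels of 3.73 and 2.13 on the resting wild-type array. Vsig4, the complement receptor CRIg of tissue macrophages, lay at percentile 97.2, with levels of 5.64, 2.73, 4.98 and 1.98. Cxcl13, the chemokine that draws B cells into body cavities, lay at percentile 90.5, with levels of 3.27, 6.22, 2.58 and 6.35. Gata6, the transcription factor of large peritoneal macrophages, lay at percentile 64.2, with levels of -0.30, -1.37, 0.04 and -2.04. Timd4, a receptor for phosphatidylserine, lay at percentile 63.7, with levels of -0.34, 1.58, -0.37 and 1.18. On both arrays without LPS the 5 genes kept the order Csf1r, Vsig4 and Cxcl13, followed by Gata6 and Timd4, which in wild type differed by less than the median standard deviation of spots. Csf1r, Vsig4 and Cxcl13 lay in the top 10%, and Gata6 and Timd4 lay nearer to the middle.

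Single probes stood for Vsig4, Cxcl13 and Timd4, and the last 30 bases of each are shown because the placement of these markers rests on them. Positions on mm9 are those of the array annotation for the whole probe.
Vsig4 (chromosome X, 93442598 to 93442657): acttttaattgatattactattgctacatt
Cxcl13 (chromosome 5, 96389861 to 96389920): aattgaaagatcctcagcttaaaggtccag
Timd4 (chromosome 11, 46657173 to 46657232): ttgactatagtgccttctgaactcttgcag
None of these 3 probes shares a 16-base run with a probe of another gene. Gata6 also rested on 1 probe, not shown here, which shares a run with a probe of 1 other gene in the opposite orientation.

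**Figure D2:**
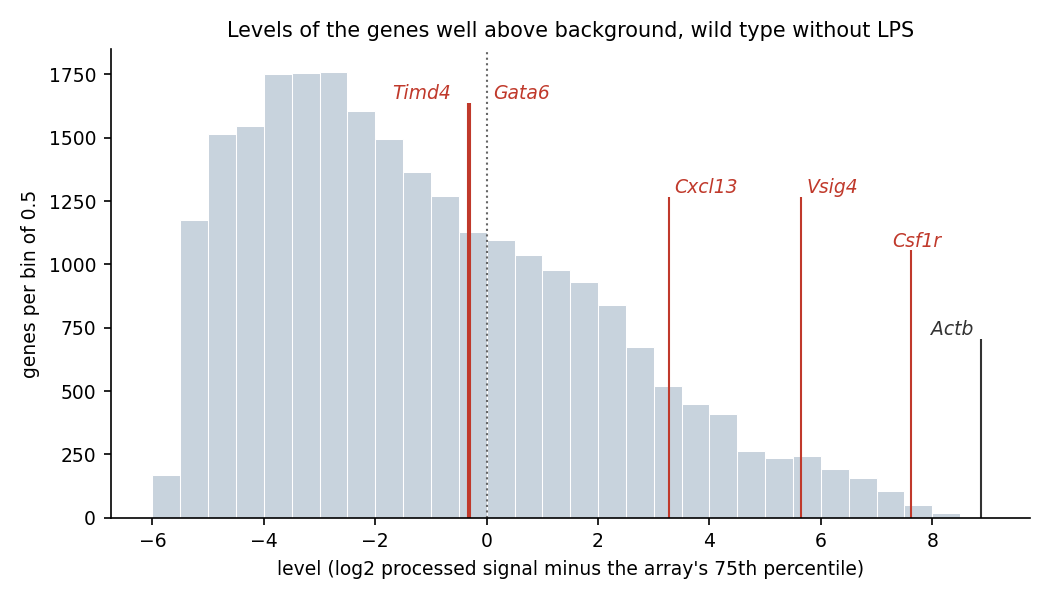
Number of ranked genes in bins of 0.5 by level (log2 processed signal minus the array's 75th percentile, dotted line at 0) on the wild-type array without LPS, with the levels of 5 markers of resident peritoneal macrophages (red) and of Actb, the gene ranked highest (black). Gata6 and Timd4 sit just under 0, Cxcl13 at 3.27, and Vsig4 and Csf1r in the upper tail.

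Genes that mark macrophages in general were near the top. All 18 of them were well above background, 14 in the top 10%, and their median percentile was 97.4 (95% order-statistic interval 92.3 to 99.6, over genes), where the median of all genes with a symbol was 56.3. After Tyrobp and Csf1r the highest were Marco, a scavenger receptor for bacteria (7.47, 8.45, 7.0 and 8.58), Lgals3 (7.45) and Fcer1g, the Fc receptor gamma chain (7.35). Lyz2, the lysozyme of myeloid cells, had levels of 7.08, 7.71, 7.89 and 7.99, and so was lowest on the resting wild-type array. Its near-identical neighbour Lyz1 read 6.91, and the probes of these copies cannot be fully told apart. Cd68 (7.02), Mpeg1 (6.76), which encodes the pore-forming perforin-2, and Adgre1, which encodes F4/80 (6.64), followed. The lowest were Mertk, a receptor tyrosine kinase for dying cells (1.53, 2.13, 2.38 and 2.62), and Fcgr1, the high-affinity IgG receptor (1.06, 3.69, 0.69 and 3.78). Itgam, which encodes CD11b, read 4.06 on a probe with a shared run and 1.49 on the brighter of its other probes.

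The 25 genes of the large peritoneal macrophage list were all above background but lay lower, with a median percentile of 73.1 and 9 in the top 10%. The highest were Saa3, an acute-phase protein gene (6.83, 8.65, 6.51 and 8.82), Fn1, which encodes fibronectin (6.70, 6.23, 6.09 and 5.86), Vsig4, Emilin2 (5.31) and the tetraspanin gene Cd9 (5.15). Icam2, an adhesion molecule used to sort these cells, read 3.84, 3.94, 3.38 and 4.06. The transcription factor genes Bhlhe40 (0.72) and Wt1 (0.45, -0.87, -0.32 and -1.33) were lower but above the middle of the ranking. The retinoic acid receptor gene Rarb (-1.67) was near the middle. Prg4, which encodes lubricin, read -0.78 and -0.65 without LPS and 3.92 and 3.91 with it. Selp (-2.16), F5 (-2.40, on a probe with a shared run, and -4.92 on its other probe) and the lipoxygenase gene Alox15 (-2.43) were the lowest.

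Markers of small peritoneal macrophages and monocytes were mixed, with 12 of 14 above background, 2 in the top 10% and a median percentile of 57.9. Folr2, a folate receptor (5.03, 3.94, 4.14 and 3.32), and Mgl2, a C-type lectin (4.34, 6.08, 4.18 and 6.10), were the highest, followed by the Fc receptor gene Fcgr4 (2.40). Irf4 (-1.45), Retnla (-2.80) and Lyve1 (-4.51) were low. Ccr2, the chemokine receptor of monocytes, was not well above background on the resting wild-type array. Because each array read a whole culture, fewer cells of a type and less RNA of that gene per cell cannot be told apart.

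Lymphocyte and mast cell markers had medians under the middle of the ranking. Of 11 B cell markers 10 were above background with a median percentile of 40.7, none of them in the top 10%, and their summed signal, in units of the 75th percentile, was 2.74 to 3.49 over the 4 arrays. Cd79b (-1.29), Cd79a (-1.70) and Ms4a1 (-2.65) were low and moved by under 0.4 over the arrays. Cd22, the highest of the list (0.30), rested on a probe with a shared run. Of 11 T cell markers 10 were above background (median percentile 49.8, summed signal 7.47 to 10.8), led by Thy1 (2.17), Cd4 (1.28) and Cd3e (0.73), while Cd3d (-4.07) was low and Cd3g was not well above background. The 8 NK cell markers had a median percentile of 35 and a summed signal of 3.81 to 4.68, with Nkg7 (1.73) the highest. Of 10 mast cell markers 6 were above background (median percentile 23.9, summed signal 1.05 to 2.03), with Kit at -4.88 and Tpsab1, Cma1, Ms4a2 and Fcer1a not well above background.

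Granulocyte and dendritic cell markers had low medians with single high members. For eosinophils and neutrophils 14 of 15 were above background (median percentile 35.4, summed signal 61.5 to 72.4), with S100a9 (-4.35), Ltf (-4.37) and Ly6g (-4.96) near the floor and the eosinophil peroxidase gene Epx not well above background. Csf3r, the receptor of granulocyte colony-stimulating factor, made up most of that sum at 5.83, on a single probe with a shared run. Without such probes no gene of this list lay in the top 10%. S100a8 (1.51) and Mmp8 (2.98, 1.85, 1.96 and 0.53) were above the middle. For dendritic cells 9 of 10 were above background (median percentile 45.3, summed signal 74.1 to 104.5). Siglech made up most of that sum at 5.90, on a probe with a shared run, and its brightest probe without one read -2.48. Itgax, the CD11c integrin that macrophages also express, read 5.41, while Zbtb46 (-2.02), Flt3 (-1.96) and Clec9a (-2.69) were lower and Xcr1 was not well above background.

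Connective tissue transcripts had members in the top 10% that the macrophage lists do not hold. The mesothelial and fibroblast list had 15 of 16 genes above background with a median percentile of 48.5, and its summed signals on the 4 arrays were 66.4, 80.5, 60.4 and 52.5. Col1a2 (4.88, 5.39, 4.99 and 4.76) and Col1a1 (4.73, 4.54, 4.07 and 3.84), the chains of type I collagen, lay in the top 10%. The proteoglycan gene Dcn read 2.55. Of the 15 genes 7 lay above the middle of the ranking, among them Wt1, which the large macrophage list also holds. Of the mesothelial genes, Upk1b (-1.77), Upk3b (-2.47), Krt18 (-2.72), Msln (-3.42) and Krt19 (-4.77) were in the lower part. Dpt was not well above background. Among endothelial and erythroid markers 5 of 10 were above background, with Kdr (2.60) and Vwf (1.18) the highest on probes that differed by 5.5 and 4.5 from another probe of the gene, Cdh5 at -5.13, and Tek, Hbb-bs, Alas2 and Klf1 among those not well above background. The part of these cells in the values of the macrophage genes was not tested.

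**Figure D3:**
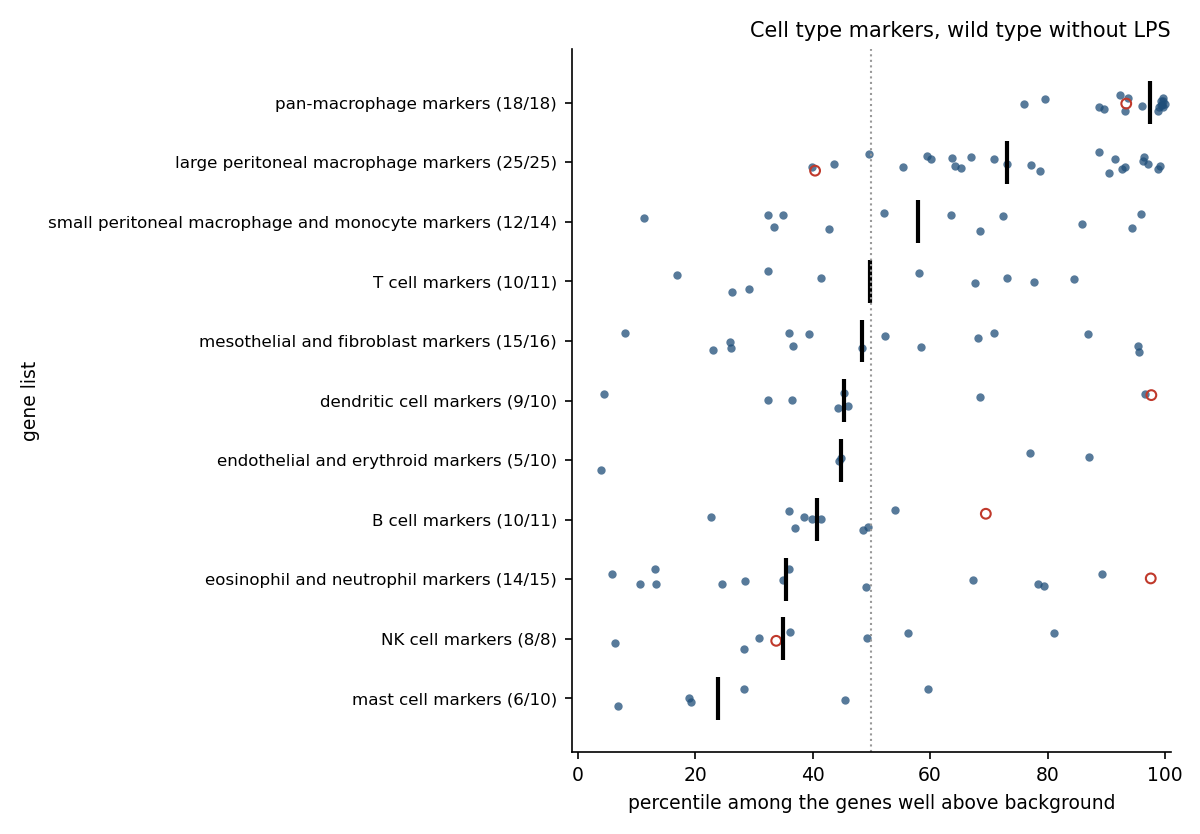
Percentiles among the 24739 ranked genes of the markers of 11 cell types on the wild-type array without LPS, 1 point per gene above background, with the median of each list as a black bar and, beside the list, the genes above background of those on the array. Open red points are genes on a probe with a run shared in both orientations. Pan-macrophage markers crowd at the right (median 97.4), the large macrophage list is centred at 73.1, and the medians of the 8 lists of other cell types lie under 50.

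Lysosomal genes made up the group with the highest placement after ribosomal proteins. All 31 were above background and 24 were in the top 10% (median percentile 98.3), with the protease genes Ctsd, Ctsb, Ctss, Ctsa and Ctsl (7.16), the membrane proteins Lamp1 and Cd63 (7.26), and Psap (7.17), which encodes the activators of sphingolipid breakdown. Lipa, the acid lipase of cholesterol ester breakdown, read 5.0, 2.95, 5.15 and 2.73, higher on both arrays without LPS than with it. Ctsk, the cathepsin of bone-resorbing cells, was among the lowest at 1.18. The 28 genes of ribosomal proteins and translation factors had a median percentile of 99.0, with each of them in the top 10%. Genes of glycolysis (95.4, 11 of 18 in the top 10%), of oxidative phosphorylation (94.5, 18 of 24) and of antioxidant enzymes (92.3, 13 of 22) also had medians above 90. These transcripts are high in most cultured cells.

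Iron and lipid handling genes followed ferritin and Apoe. Of 16 iron and haem genes 6 lay in the top 10% (median percentile 86.9), with the phagosomal metal transporter gene Slc11a1 at 5.19 and haem oxygenase Hmox1 at 4.29, 5.91, 4.20 and 6.34. The iron exporter gene Slc40a1 read 1.12, -2.59, 2.03 and -1.66. Cd163 itself was at percentile 0.901 on the wild-type array, close to the floor, with levels of -5.47, -5.01, -6.0 and -5.48. Of 22 lipid genes 8 lay in the top 10% (median percentile 86.9). Lpl, lipoprotein lipase (6.78, 5.30, 6.37 and 5.0), Fabp4 (5.74, 3.03, 5.30 and 2.55), the lipid droplet gene Plin2 (5.63) and the fatty acid transporter gene Cd36 (5.10) were among them. Pparg, the nuclear receptor that drives several of these genes, read 0.90, -1.71, 0.97 and -2.06.

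Complement genes read high at rest. Of 16, 15 were above background and 8 in the top 10% (median percentile 90.4). The chains of C1q, which starts the classical pathway, were C1qa (6.77, 6.23, 6.88 and 6.33), C1qc (6.76) and C1qb (6.37). C3 (5.70, 7.36, 5.89 and 7.71), properdin Cfp (5.69) and C4b (4.63) followed. Factor B of the alternative pathway, Cfb, was lower without LPS than with it (3.25, 7.89, 3.42 and 7.99). The terminal components C5 (listed as Hc, -2.84) and C6 (-3.46) were low and Cfd was not well above background. Of 35 secreted matrix, protease and coagulation genes 19 were in the top 10%, led by Lgals3, the annexin gene Anxa1 (7.11), Lyz2 and Sparc (7.05), a matrix glycoprotein that fibroblasts also make.

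Chemokines and cytokines were uneven at rest. Ccl6 (6.89, 6.11, 6.59 and 5.55), Pf4, the platelet factor chemokine (6.18, 7.14, 5.13 and 6.31), and Ccl9 (5.25) were the highest of 24 chemokine ligand genes, 22 of them above background. Ccl5 (4.18, 8.33, 4.42 and 8.32) and Ccl2 (2.69, 6.12, 1.87 and 5.68) were already above the 75th percentile without LPS. Cxcl10 (-1.94), Cxcl2 (-3.16) and Cxcl9 (-3.97) were low, and Cxcl3 and Ccl22 were not well above background. Among 32 cytokine and growth factor genes, 26 were above background (median percentile 67.1), with Grn, progranulin (6.26), Mif (5.65), Igf1 (5.21) and Gas6, the ligand that bridges dying cells to Mertk and Axl (4.26, 0.59, 3.99 and 0.05), at the top. Il1b (0.24, 6.55, 0.12 and 6.81) and Tnf (0.17, 3.74, 0.37 and 4.60) lay near the array's 75th percentile, a level of 0, at rest. Il6 (-2.34), Il10 (-2.93) and Il12b (-4.59) were low, and Csf2, Csf3, Il12a, Il23a, Il33 and Lif were not well above background.

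Transcription factors had a median percentile of 76.5, with all 40 of the list above background and 11 in the top 10%. Cebpb (4.27, 5.01, 3.76 and 5.01), Id2 (4.20), Atf3 (4.20), and Klf6 (4.17) were the highest. Irf8 (3.57) and the lysosomal regulator gene Mitf (3.57) followed. Spi1, which encodes the myeloid factor PU.1, read 0.45, 0.62, 0.69 and 0.78, and Klf4 -0.07. Class I presentation genes (median percentile 90.9, 9 of 16 in the top 10%) were led by H2-K1 (7.35), H2-D1 (7.34) and B2m (7.07), whose class I heavy chains are similar to each other in sequence. Class II genes were lower (83.7, 5 of 14), with H2-Ab1 at 5.88, Cd74 at 5.51 and H2-Eb1 at 5.42, while the class II regulator Ciita read -2.46 on a probe with a shared run.

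Genes linked to activation states did not form a block at rest. Of 22 alternative activation genes 8 lay in the top 10%, among them Clec7a (7.05), Fn1, Folr2 and the mannose receptor gene Mrc1 (3.27, -0.10, 2.94 and -0.96), whereas Chil3 (-2.23), Retnla (-2.80) and Ccl17 (-5.03) were low. Arg1, arginase 1, read 1.27, 4.55, -0.65 and 2.83. Of 25 inflammatory genes 24 were above background with a median percentile of 65.9 on this array. Saa3, the protease inhibitor gene Slpi (5.58, 7.39, 5.07 and 7.49) and Ccl5 were in the top 10%. Nos2 (-1.79), Ifit1 (-2.73) and Il12b were low, and Ido1 was not well above background. Cell cycle genes had a median percentile of 75.9 with 1 of 27, Pcna (4.49), in the top 10%, and Mki67 read 1.75, 2.21, 1.53 and 1.88.

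Of 291 receptor genes on the 12 receptor lists, 275 were above background (94.5%, against 81.9% of all genes and 86.3% of genes with a symbol), 64 lay in the top 10% and the median percentile was 74.7. Families differed in how many members were near the top. Fc, complement and immunoglobulin-like receptors had the highest median (88.3, 14 of 34 in the top 10%), followed by integrins and adhesion molecules (84.1, 12 of 31) and scavenger receptors (80.1, 6 of 21). Chemokine and chemoattractant receptors (62.7, none of 24 in the top 10%) and G protein-coupled and purinergic receptors (62.7, 5 of 38) had the lowest medians. Each median rests on the 19 to 34 genes of a family that were above background, and the order of the families was not tested.

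**Figure D4:**
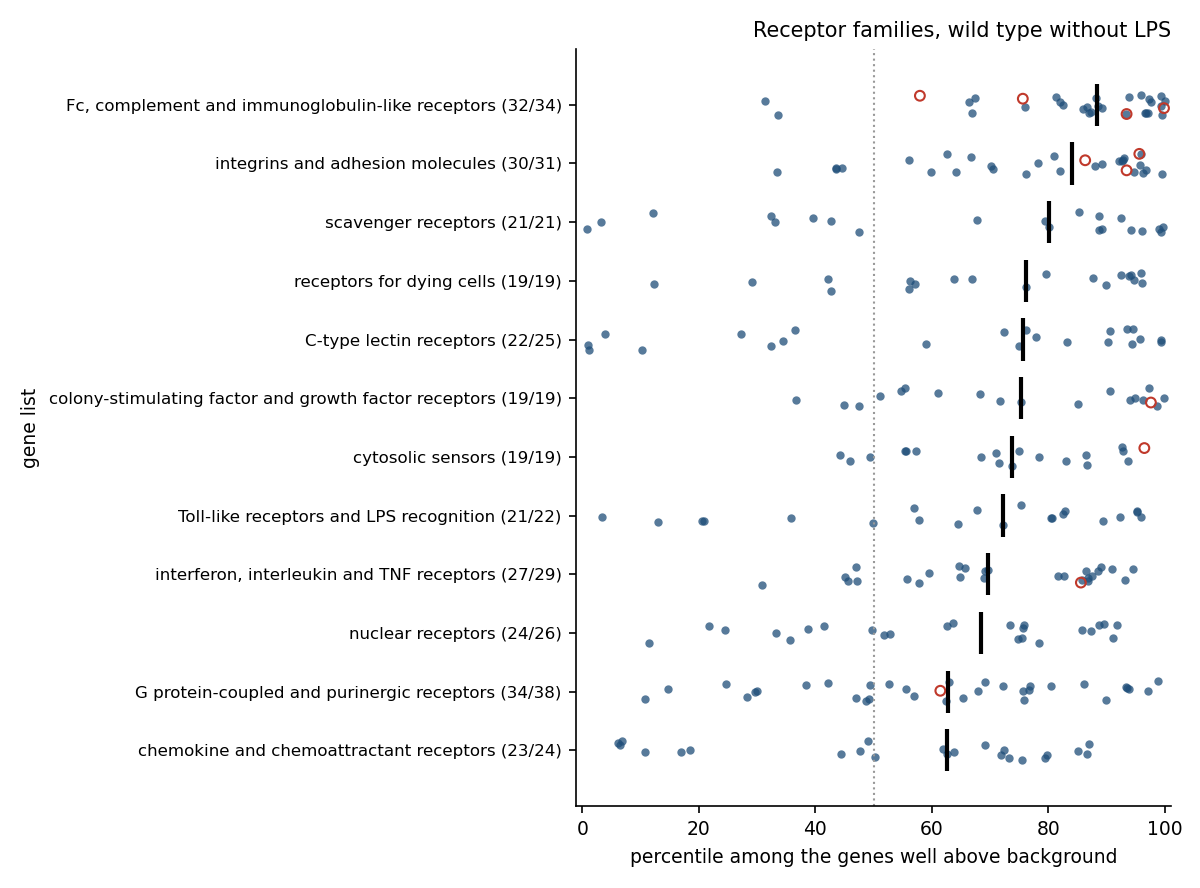
Percentiles among the 24739 ranked genes of 12 receptor families on the wild-type array without LPS, 1 point per gene above background, with the family median as a black bar and, beside the list, the genes above background of those on the array. Open red points are genes on a probe with a run shared in both orientations. Family medians run from 62.7 to 88.3, and each family holds members under the middle of the ranking as well as in its top 10%, except chemokine and chemoattractant receptors, whose highest member is at 87.0.

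Of 19 receptors of colony-stimulating and growth factors, all above background, 8 lay in the top 10%. Csf3r was among these on a probe with a shared run. The list had a median percentile of 75.3, beside 74.7 for all receptor genes. Besides Csf1r, the alpha chain of the GM-CSF receptor, Csf2ra, read 6.51, 6.58, 6.61 and 6.55, and its beta chain Csf2rb read 5.70. The related gene Csf2rb2 read 5.13. Tgfbr2 (3.29) and Tgfbr1 (2.25, on a probe 7.50 above the dimmest of its others) bind TGF-beta. Of 29 cytokine receptors 27 were above background and 3 in the top 10%: Tnfrsf1a (4.41, 3.91, 4.09 and 4.09), Ifngr1 (3.99, 2.26, 3.53 and 2.63) and Ifngr2 (3.40). The receptor chains for interleukin 10, Il10rb (2.68) and Il10ra (2.55), were above the 75th percentile, and those for interleukin 4, Il4ra (-0.23), and interleukin 13, Il13ra1 (-3.09), were below it.

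Of 22 genes of Toll-like receptors and LPS recognition, 21 were above background and 4 in the top 10%. Unc93b1, which carries endosomal Toll-like receptors to their compartment, read 4.98, 5.16, 4.99 and 5.30, and Tlr13, a sensor of bacterial ribosomal RNA, read 4.67, 3.17, 4.56 and 2.94. For LPS itself, Cd14 read 3.75, 5.81, 3.95 and 5.96, Ly96, which encodes MD-2, 1.91, 1.31, 1.29 and 1.36, and Tlr4 0.62, 0.57, 0.60 and 0.31. The brighter Tlr4 probe stood 4.17 above the dimmer one. Tlr2 (3.02), Tlr7 (1.95) and Tlr9 (1.64) were above the 75th percentile, Tlr3 (-3.81) and Tlr5 (-3.79) were low and Tlr11 was not well above background. Among cytosolic sensors Casp1 (4.12), its adaptor Pycard (3.88) and Nlrp1a (3.83) were in the top 10% and Nlrp3 was at -2.11. Naip5 read 5.27 on a probe with a shared run.

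Fc, immunoglobulin-like and C-type lectin receptors were spread along the ranking. The paired receptor genes Lilrb4a (7.08, on a probe that also reads Lilr4b) and Pirb (7.74 on its probe with a shared run, 6.33 on its brightest other probe) were in the top 10%, as were the gene of the lipid receptor Trem2 (6.96, 5.14, 6.77 and 4.92), and Sirpa (5.62), which binds the CD47 signal of healthy cells. The Fc receptor genes read 4.17 for Fcgr3, 2.84 for Fcgr2b and 2.40 for Fcgr4, and Siglec1 read -0.06, 3.14, 0.22 and 3.31. Among 25 C-type lectins, 22 were above background and 8 in the top 10%. Clec7a, the beta-glucan receptor dectin-1, read 7.05, 5.89, 6.89 and 4.81. Clec4d (6.98, 7.20, 6.79 and 7.13) and Clec4e (3.21, 7.17, 3.22 and 7.30) bind mycobacterial glycolipids. Clec5a (-5.43), Ly75 (-5.44) and Clec4a2 (-5.15) were near the floor, and Clec4f and Cd209b were not well above background.

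Scavenger receptors were led by Marco, Cd68 and Cd5l, a secreted scavenger protein of tissue macrophages (6.72, 4.60, 5.77 and 3.50). Cd36 (5.10), Lrp1 (4.29) and Stab1 (3.77) were also in the top 10%, Msr1 read 2.88, and Cd163 and Ager (-5.21) were at the bottom. Of 19 receptors for dying cells 6 lay in the top 10%, namely Cd36, Cd93 (4.97, 2.82, 4.80 and 2.33), Itgb5 (4.44, 2.89, 4.34 and 2.68), Lrp1, P2ry6 (4.16) and Stab1. The Gas6 receptors Axl (2.69, 3.56, 2.49 and 3.37) and Mertk were above the 75th percentile and Tyro3 was at -1.0. The brain receptor Adgrb1 (-3.20) and the kidney receptor Havcr1 (-4.43) were low.

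Among adhesion molecules, the tetraspanin genes Cd63, Cd9 and Cd81 (4.95) and the integrin chains Itgax (5.41) and Itgb2 (4.97, 4.95, 5.38 and 5.0) were in the top 10%, and Itgad was not well above background. Itga6 read 4.84 on a probe with a shared run and 2.14 on its other probe. Of chemoattractant receptors, those for the complement fragments C5a and C3a, C5ar1 (2.58) and C3ar1 (2.50), were the highest, followed by the formyl peptide receptor gene Fpr1 (2.26, 5.55, 2.19 and 5.80). The CC chemokine receptor genes Ccr3 (-1.72), Ccr1 (-3.94) and Ccr6 (-4.88) were low. Of other G protein-coupled and purinergic receptors, Adgre1, the ATP-gated channel gene P2rx4 (5.59), P2ry6, Lpar6 (4.06) and Adgre5 (4.03) were in the top 10%. Of nuclear receptors, Nr1h2 (3.61), the ubiquitous liver X receptor, and Rxrb (3.41) were in the top 10%, Nr1h3 read 2.87, 4.00, 2.87 and 4.40, and Nr4a3 was not well above background.

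The ranking of the resting wild-type array was set beside the other arrays by counts alone. Of its 100 genes ranked highest, 87 were also in the top 100 of CD163-deficient cells without LPS, 61 in that of wild type with LPS and 52 in that of CD163-deficient cells with LPS, and 49 were in the top 100 on all 4 arrays. None of the 100 was 2-fold lower or higher on the CD163-deficient array without LPS, where 1.49% of 24739 ranked genes were 2-fold lower and 0.796% higher. On wild type with LPS 3 were 2-fold lower (5.7% of ranked genes) and none higher (5.78%). On CD163-deficient cells with LPS 3 were lower (7.53%) and 1, Marco, was higher (6.51%). Mfge8 and Fabp5 were among the 3 on both arrays with LPS, and the other was a probe without a gene name. The median differences of the 100 were -0.29, -0.45 and -0.37 for these arrays in the same order. Over the ranked genes the medians were -0.08, -0.04 and -0.04. A gene picked as bright on 1 array tends to read lower on another, and the reference intensity subtracted was lowest on the resting wild-type array. How much of the differences came from that choice of genes or from the reference was not tested.

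List members were counted in the same way, and since the lists were chosen with earlier results of these data known, the counts describe the lists and support nothing about LPS. Of 726 distinct list members above background at rest, 11 were 2-fold lower and 3 higher on the CD163-deficient array without LPS (1.52% and 0.413%, beside 1.49% and 0.796% of ranked genes). On wild type with LPS 104 were lower and 157 higher (14.3% and 21.6%, beside 5.7% and 5.78%), and on CD163-deficient cells with LPS 127 were lower and 160 higher (17.5% and 22%, beside 7.53% and 6.51%). The 3 comparisons share the resting wild-type array. Without a second culture of resting wild-type cells, none of these counts has a replicate check.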

How the data were processed

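Total RNA of 4 cultures was read on 1-colour Cy3 Agilent arrays of 1 slide. Per the file headers, the deposited spot intensity comes from Feature Extraction 10.7.1.1, background-subtracted and not scaled between arrays; the submitters' processing notes name 9.5.1.1. A deposited table of normalized signal, whose columns have a median of 175.3, equals a quantile normalization of these intensities within a median of 0.0012 (log2) and served as an alternative. Here log2 intensity minus the array's 75th percentile was used, spots of a probe averaged (39429 probes from 43020 spots), 50% of spots required above background, and the brightest probe taken per gene. Of the probes, 26856 were named by RefSeq accession, 3752 by current symbol, 623 by older symbol and 8198 by the file's name. Named genes are the 60 ranked highest with a symbol and members of 42 lists, plus genes whose probes differ most or share runs. Members and lists were chosen with earlier results of these data known. Runs of 16 bases shared between probes were found after seeing the data. Ranking was tested on simulated data. Python 3.11.15 (numpy 2.4.6, pandas 2.3.3, scipy 1.17.1, matplotlib 3.10.9) and R 4.3.3 (limma 3.58.1) were used. Some list members are not reported here.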

Additional observations from a re-analysis of the deposited data

How the results depend on the processing

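With 1 array per group no spread between cultures is known, and signal near background limits dim genes. No paired analysis was possible because each group holds 1 array. Of the top 100 genes, 94 stayed with normexp correction (offset 50), 67 with the mean of all probes, 81 without probes that share a run in both orientations (an alternative chosen after seeing the data) and 100 with no background filter, the deposited table or RefSeq symbols. Genes above background numbered 24712 with every spot required and 28120 with the weaker flag. Lists with a median percentile of 75 or more numbered 23, and 22 to 25 over the alternatives. Of 40 list medians with an order-statistic interval, 1 left it, that of dendritic cell markers with the mean of all probes (31.7). The other 2 lists had 5 genes above background and no interval, and the median of endothelial and erythroid markers fell from 44.8 to 18.5 without the background filter, which adds its 5 genes not well above background. Of 64 named genes, 15 shifted by more than 5 percentile points with the mean of all probes, 2 without the filter and 0 with normexp or the table, and 11 of 60 did so without probes that share a run. With the 300 genes ranked highest in place of 100, the share also in the other array's list was 70.67% for wild type with LPS (61% of 100) and 63.33% for CD163-deficient with LPS (52%), by the list's size. Quantile normalization and normexp moved the shares by at most 4 percentage points and the 2-fold counts of the 100 genes by at most 1.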

Other observations

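Of 726 distinct list members above background, 20 rested on a probe that shares a run in both orientations (2.75%, beside 3.09% of the ranked genes). For 11 of them another probe without such a run was on the array, and in each of the 11 it was at least 2-fold dimmer, with a median gap of 2.53. A dimmer other probe follows from taking the brightest probe per gene. Over 5587 genes with 2 or more probes above background, the brightest and the dimmest differed 2-fold or more in 73.0%, with a median of 2.05. In Il15ra, a chain of the interleukin 15 receptor, the probes lay at 2.34 and -3.03. The other 9 of the 20, Csf3r, Naip5, Cebpa, Cd22, Trem1, Cd300a, Adora2a, Ciita and Rplp1, had no other probe without a shared run. Their levels could not be read on independent sequence. Among ranked genes, the 764 on probes with a shared run had a median level of 0.62, against -1.71 for the rest. Among the 5483 genes not well above background, 1.24% had such a probe.

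Zfp628, a zinc finger gene, ranked 29 at 7.93, and another probe of the gene lay 8.29 lower, without a run shared in both orientations. Rps27a, a ribosomal protein gene at 7.62, had another probe at 6.63 and one more at -3.88.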
